A study of Danio rerio with 3 samples.

Results

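The genes described here are 10 members of the Notch pathway of zebrafish: the ligand gene dll4, the receptor genes notch1a, notch1b and notch3, the fringe gene lfng, and the target genes her6, her9, her15.1, hey1 and hey2. They were chosen by name and role, and the rule used no measured value, though earlier results of these data were known when it was set. All 10 had a row among the 19831 genes of the table, and 9 had at least 1 count in the cells analysed. The cells were single cells sorted from the trunk of embryos at 36 hours post fertilization and profiled by STRT-seq, a plate-based method that counts transcripts cell by cell. The fish carried spi2:Gal4;UAS:GFP, in which the spi2 promoter drives Gal4 and so GFP, together with kdrl:mCherry, a reporter of the endothelial receptor gene kdrl. The libraries DP 1 and DP 2 hold cells listed as kdrl+spi2+, and the series asks how blood lineage competence arises in hemogenic endothelium. The kdrl-spi2+ library was not analysed here.

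Notch signalling passes between touching cells. A Delta or Jagged ligand on one cell binds a Notch receptor on its neighbour, the receptor is cleaved, and its intracellular part joins the RBPJ factor to switch on genes of the her and hey families, which encode transcriptional repressors. In the dorsal aorta the pathway is known for setting arterial identity and for its part in the hemogenic endothelium that gives rise to blood stem cells.

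Cells were grouped by whether they had a count of cdh5, which encodes the endothelial adhesion protein VE-cadherin, and of myb, which encodes a transcription factor of blood progenitors. All groups share the sort, the stage and both reporters. Of 88 cells with at least 500 detected genes, 11 had a count of cdh5 (6 of DP 1 and 5 of DP 2) and 77 had none (47 of DP 1 and 30 of DP 2). A count of myb was found in 78 cells (48 of DP 1 and 30 of DP 2) and not in 10 (5 of each library). The cells with both numbered 6 in DP 1 and 3 in DP 2. Those with cdh5 alone numbered 0 in DP 1 and 2 in DP 2. The cells with myb alone numbered 42 in DP 1 and 27 in DP 2, and those with neither numbered 5 in DP 1 and 3 in DP 2. Having no count does not show that a gene is silent in a cell.

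DP 1 was the deeper library, with a median of 134394 counts per cell against 58292 in DP 2. The median total of cells with cdh5 was 172326 in DP 1 and 63118 in DP 2, against 123857 and 56616 in cells without it. Of 20 pan-endothelial markers, cells with cdh5 had a median of 8.5 in DP 1 and 12 in DP 2, and cells without cdh5 a median of 2 in each library. The list includes cdh5 itself, which adds to the number in every cell with cdh5 and in none without it. With cdh5 left out, the list summed to 1545 (DP 1) and 1494 (DP 2) counts per 1000000 in cells with cdh5. In cells without cdh5 it summed to 211 and 357. The sort gene kdrl was found in 3 of 6 and 4 of 5 cells with cdh5, and in 12 of 47 and 11 of 30 cells without it. The endothelial factor gene erg had 0 counts in every cell. Neutrophil markers summed to 2638 CPM (counts per 1000000) in DP 1 and 465 CPM in DP 2 in cells with cdh5, against 8106 and 6000 CPM in cells without cdh5, with 11 of the 12 listed markers in the table. The epidermal list, of which krt5, epcam and cdh1 were at 0 in cells with cdh5, summed to 437 and 718 CPM in cells with cdh5, against 22.4 and 143 CPM without. In DP 1 krt4 was also at 0 in cells with cdh5, so the 437 CPM came from krt8 alone. The part of any of these in the results below was not tested. No label ties the libraries to separate embryos. The p-values below measure the spread left among sums of cells once the library and the cell states are fitted. In the main test that spread was in effect pooled over genes and was not each gene's own. That spread may be technical, and no p-value is known to measure a spread between embryos.

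**Figure D1:**
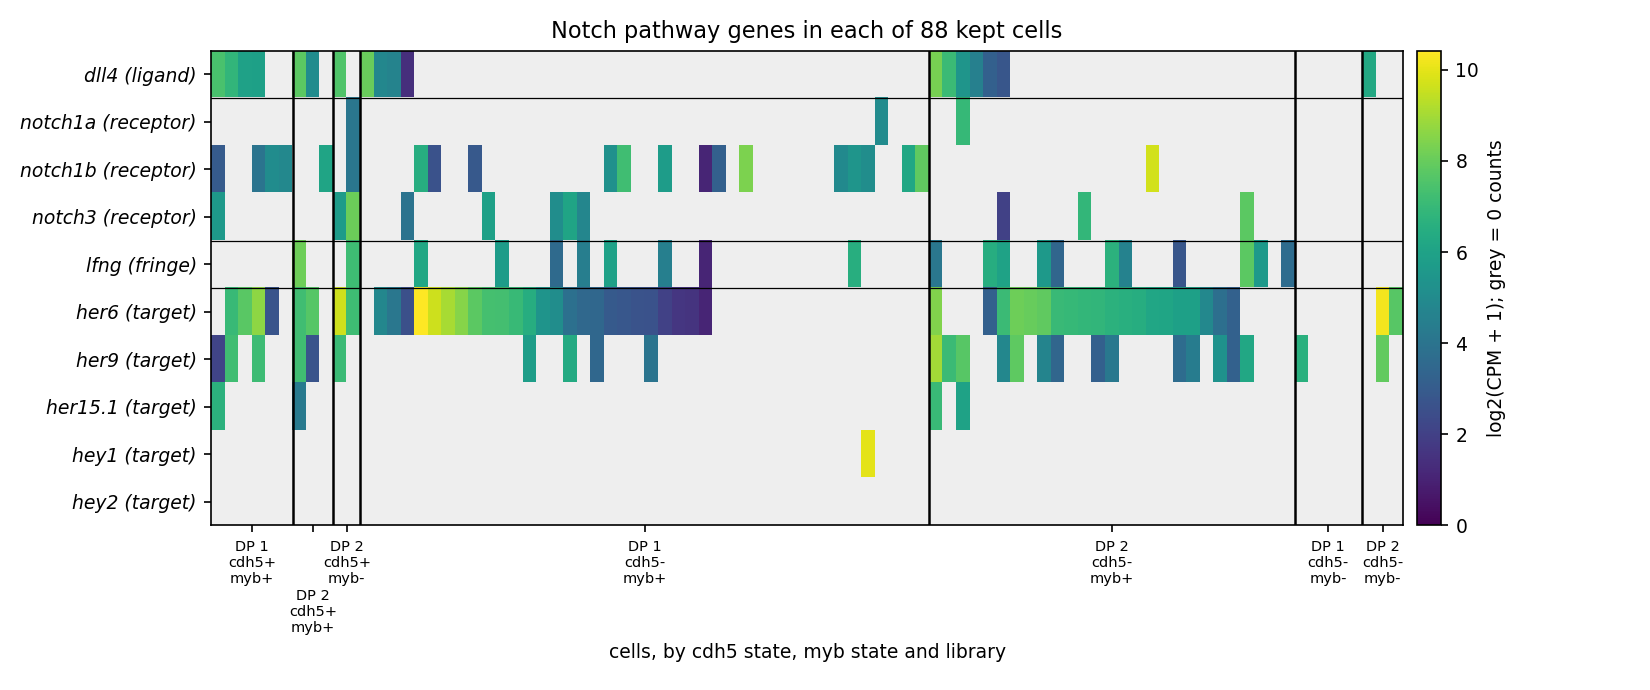
Each column is 1 of the 88 cells and each row 1 of the 10 genes, with colour for log2(CPM + 1) and grey for 0 counts; vertical lines part the groups by cdh5 state, myb state and library. The dll4 row is filled in 7 of 11 cells with cdh5, the her6 row is the most filled with 55 cells, and the hey2 row is empty.

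The ligand gene dll4 encodes Delta-like 4, a ligand known from arterial and sprouting endothelium. It was found in 7 of 11 cells with cdh5 and in 11 of 77 cells without it. In DP 1 it was found in 4 of 6 cells with cdh5 and 4 of 47 without, and in DP 2 in 3 of 5 with cdh5 and 7 of 30 without. Both libraries therefore had the larger share among the cells with cdh5, but the exact Clopper-Pearson 95% intervals in DP 2 overlapped (14.7 to 94.7% with cdh5, 9.93 to 42.3% without). In DP 1 the intervals were 22.3 to 95.7% with cdh5 and 2.37 to 20.4% without. Cells are not replicates, so in neither library do the intervals test a difference between the states, and the shares are a description.

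Summed over cells, dll4 stood at 87.9 CPM in cells with cdh5 of DP 1 (93 counts), against 2.08 CPM in cells without it (17 counts). In DP 2 the summed levels were 145 CPM with cdh5 (101 counts) and 19.4 CPM without (47 counts). The exact Poisson 95% intervals cover counting error only and take each count as a separate molecule, which is not known here. They were 70.9 to 108 CPM with cdh5 and 1.21 to 3.33 CPM without in DP 1. In DP 2 they were 118 to 176 CPM with cdh5 and 14.3 to 25.9 CPM without. The ratio was 42.3-fold in DP 1 and 7.45-fold in DP 2, so the size differed widely between libraries while the direction did not. Single cells carried much of each sum: 1 cell gave 53.8% of the dll4 counts with cdh5 in DP 1 and 1 gave 83.2% in DP 2. Without cdh5, 1 cell gave 52.9% in DP 1 and 1 gave 80.9% in DP 2. That last cell had 38 counts of dll4, 14 of the 20 endothelial markers and no count of cdh5.

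Raw counts were summed per library, cdh5 state and myb state and tested with edgeR, which took 4 of the 10 members (dll4, lfng, her6 and her9) past its filter on low counts. Of 5376 genes tested, 19 were called between cells with and without cdh5, which is 0.353% (0.223% higher with cdh5 and 0.13% lower). Of the 4 members tested, 0 were called by the edgeR quasi-likelihood test with Benjamini-Hochberg adjustment, 1 (dll4) had an unadjusted p under 0.05, and DESeq2 also called 0. For dll4 the log2 fold change, with cdh5 over without, was 3.59 ± 1.57 (SE; edgeR quasi-likelihood, Benjamini-Hochberg adjusted p = 0.839, unadjusted p = 0.0221). Its log2 fold change was positive in all 17 alternative settings, at 2.27 to 5.10. They reuse the same cells or part of them, and the setting with no minimum of cells per sum repeats the main fit. The shared sign is therefore a weak check. The call depended on the method. Of 16 alternatives that give a p, 2 called dll4: the non-legacy form of the edgeR quasi-likelihood test (3.75 ± 0.85, Benjamini-Hochberg adjusted p = 0.00618) and sums by library and cdh5 state alone (3.90 ± 1.05, adjusted p = 0.0231). Over all 16 the adjusted p ran from 0.00618 to 1, and the lowest fold change was that without DP 1, which was not called. The median log2 fold change of all genes was -0.19 (-0.08 with DESeq2 size factors), and relative to it dll4 stood at 3.78, lfng at 1.68, her9 at 1.36 and her6 at 0.40.

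**Figure D2:**
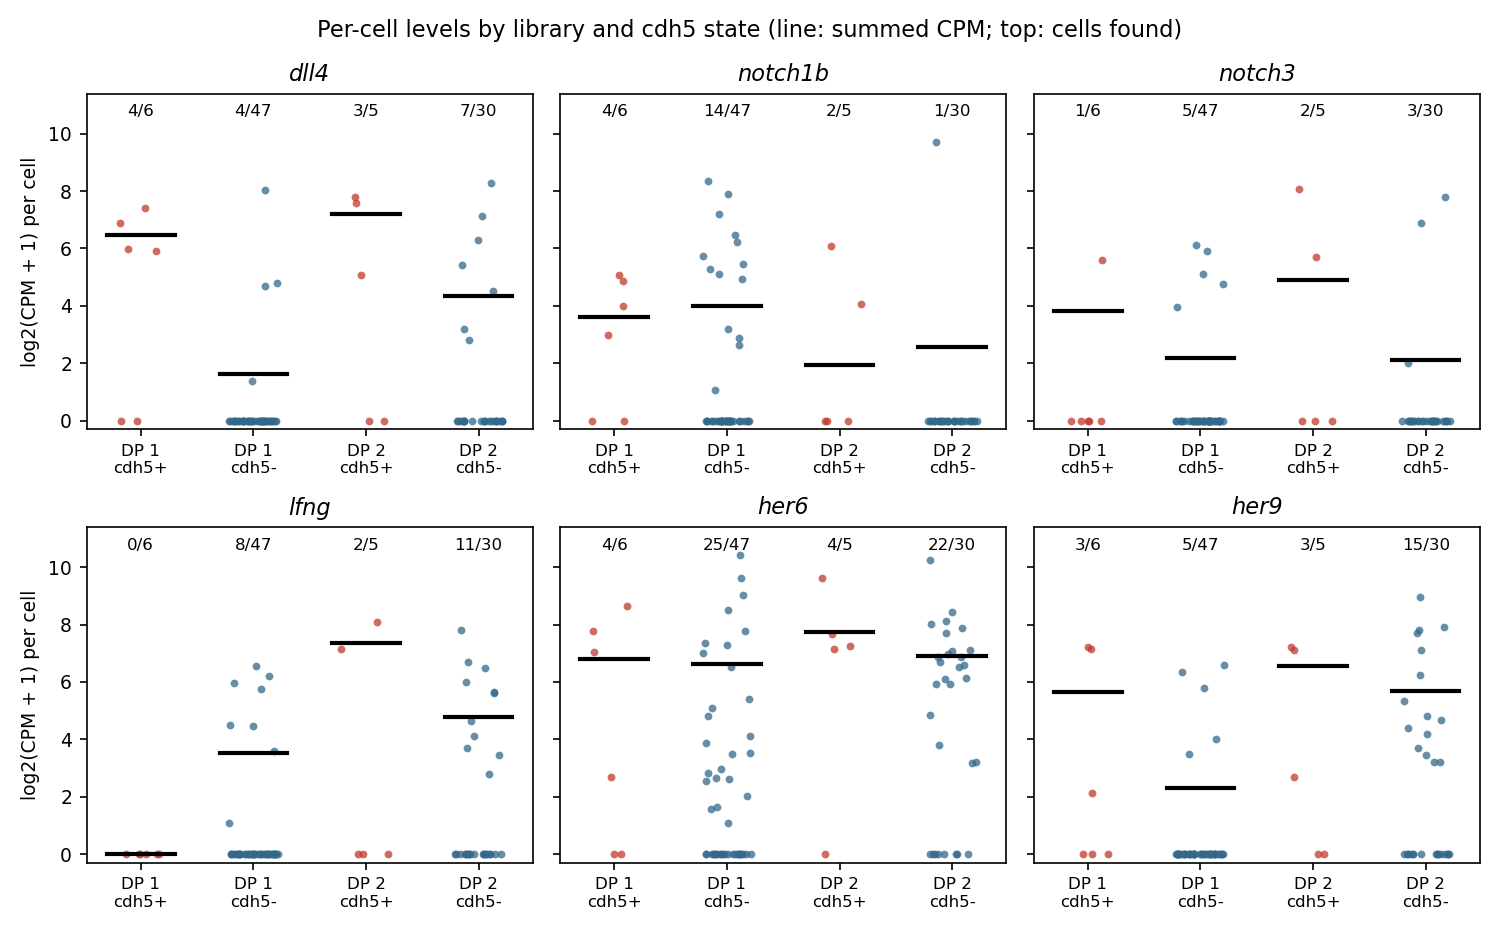
Points are single cells on a log2(CPM + 1) axis for 6 members, in 4 groups by library and cdh5 state; the line is the summed CPM of the group on the same scale and the fractions count the cells with the gene. For dll4 the lines stand at 87.9 and 145 CPM with cdh5 and at 2.08 and 19.4 CPM without, while for her6 the lines lie closer together. Among cells with her6, the median level per cell in DP 1 was 174 CPM with cdh5 and 16.4 CPM without. In DP 2 it was 177 CPM with cdh5 and 109 CPM without.

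The order of the dll4 shares was the same at equal depth. After each cell was thinned to 20217 counts, dll4 was found in 6 of 10 cells with cdh5 and 5 of 69 cells without. In the 7 cells with at least 10 counts of both neutrophil genes mpx and npsn, which all lacked cdh5, dll4 was found in 0, which allows a share of up to 42.9%. Their median total of 180529 counts lay above that of either library. In the same 7 cells lfng and her6 were each found in 5, notch1b in 2, and notch3 and her9 in 1 each. The other members were found in 0.

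At least 1 receptor gene was found in 32 of 88 cells. The gene notch1a was found in 3 of 88 cells, 1 with cdh5 and 2 without, and was too sparse to compare. The gene notch1b, which encodes a receptor expressed in arterial endothelium in zebrafish, was found in 4 of 6 cells with cdh5 and 14 of 47 without in DP 1, and in 2 of 5 with and 1 of 30 without in DP 2. Its summed level ran the other way in both libraries, at 11.3 and 2.87 CPM in cells with cdh5 (12 and 2 counts) against 15.05 and 4.96 CPM in cells without it (123 and 12 counts). The Poisson intervals of the groups overlapped in each library, and after thinning notch1b was found in 1 of 10 cells with cdh5 and 6 of 69 without. No order is read from the share.

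The receptor gene notch3 was found in 1 of 6 cells with cdh5 and 5 of 47 without in DP 1, and in 2 of 5 with and 3 of 30 without in DP 2. Its summed level was 13.2 CPM with cdh5 and 3.55 CPM without in DP 1, and 28.7 CPM with cdh5 and 3.31 CPM without in DP 2. The levels with cdh5 rested on 14 counts in 1 cell of DP 1 and 20 counts in 2 cells of DP 2. Those 2 cells of DP 2 had no count of myb. Among cells with myb, the DP 2 order turned, with 0 CPM in the 3 cells with cdh5 and 3.40 CPM without. In DP 1 the levels among cells with myb were 13.2 CPM with cdh5 and 3.68 CPM without. None of the receptor genes passed the filter on low counts, so their differences were not tested.

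The gene lfng encodes Lunatic fringe, a glycosyltransferase that adds sugars to Notch receptors and so alters which ligands they answer to. The libraries pointed opposite ways. In DP 1 it was found in 0 of 6 cells with cdh5, which allows a share of up to 50%, and in 8 of 47 without. In DP 2 it was found in 2 of 5 cells with cdh5, at 162 CPM summed, and in 11 of 30 without, at 26.5 CPM. A single cell gave 92.0% of the 113 counts with cdh5 in DP 2. Of the 150 lfng counts without cdh5 in both libraries, 47 lay in the 7 cells with at least 10 counts of both mpx and npsn. The part of those cells in the lfng comparison was not tested. The log2 fold change was 1.49 ± 2.37 (edgeR quasi-likelihood test, adjusted p = 0.999 by Benjamini-Hochberg), and it turned negative in 3 alternatives.

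Of the targets, her6, the gene of a Hes-type repressor, was the most widely found member, with 55 of 88 cells. It was found in 4 of 6 cells with cdh5 and 25 of 47 without in DP 1, and in 4 of 5 with and 22 of 30 without in DP 2. Summed levels were 111 CPM with cdh5 and 97.4 CPM without in DP 1, and 214 CPM with cdh5 and 118 CPM without in DP 2. The log2 fold change was 0.21 ± 0.77 (edgeR quasi-likelihood, Benjamini-Hochberg adjusted p = 0.999), smaller than its error. Over 18 alternatives it ran from -0.10 to 1.76, was negative in 3, and was called in 0 of the 17 that give a p. The highest values were 1.76 with thinned counts summed and 1.65 with the state called in thinned cells. After thinning, her6 was found in 7 of 10 cells with cdh5 and 27 of 69 without. Of the 55 cells, 37 had 2 or more counts, and the median over the 55 was 6 counts. At the other end, 1 cell of DP 1 without cdh5 held 355 counts, or 44.6% of that group's her6.

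The gene her9 encodes a related repressor. It was found in 3 of 6 cells with cdh5 and 5 of 47 without in DP 1, and in 3 of 5 with and 15 of 30 without in DP 2. Its summed level was 49.1 CPM with cdh5 and 3.91 CPM without in DP 1, and 93.2 CPM with cdh5 and 50.5 CPM without in DP 2. That made a 12.6-fold ratio in DP 1 and a 1.85-fold ratio in DP 2. The log2 fold change of 1.17 ± 1.55 was not called by the edgeR quasi-likelihood test (adjusted p = 0.999 by Benjamini-Hochberg), and was -0.066 without DP 1.

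The remaining targets were rare. The gene her15.1, of a Hes-type repressor, was found in 4 cells, 2 with cdh5 (30 counts in 1 of DP 1 and 7 in 1 of DP 2) and 2 of DP 2 without (16 and 3 counts). All 4 also had dll4. Its near-identical copy her15.2 was found in 3 cells with 3 counts in all, and how the counting split the copies cannot be traced here, so these values are uncertain. The gene hey1 was found in 1 cell of DP 1, without cdh5, at 90 counts. The gene hey2, known in zebrafish as gridlock for its part in forming the aorta, was found in 0 of 88 cells, which allows a share of up to 3.41% of cells with a count by the limit of 3 cells and up to 4.11% by the exact 95% interval.

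**Figure D3:**
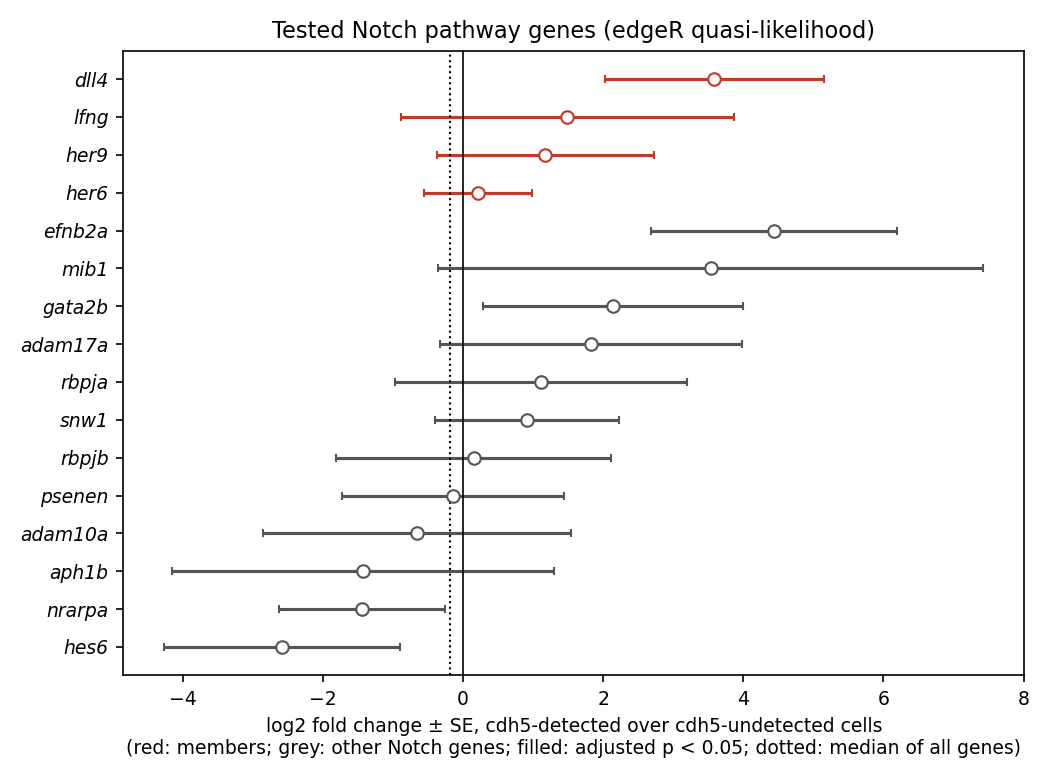
Points are log2 fold changes, with cdh5 over without, from the edgeR quasi-likelihood fit with bars of 1 SE, for 4 members (red) and 12 of the 13 other Notch pathway genes tested (grey); the dotted line is the median of all 5376 genes at -0.19. All points shown are open because none was called, and dll4 at 3.59 and efnb2a at 4.44 are the rightmost points of the red and the grey genes.

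Between cells with and without myb, 41 of 5376 genes were called, or 0.763%, all higher with myb. With DESeq2 size factors the calls were 6 higher and 5 lower. Of the 4 members tested, 0 were called by the edgeR quasi-likelihood test with Benjamini-Hochberg adjustment, 0 had an unadjusted p under 0.05, and DESeq2 called 0. The median log2 fold change over all genes was 1.02 (0.58 with DESeq2 size factors). The cells with myb had median totals of 137718 in DP 1 and 62126.5 in DP 2, against 41685 and 37027 in the 10 cells without it, and the part of this depth gap was not tested. Relative to that median, log2 fold changes were 0.20 for dll4, 1.34 for lfng, -1.23 for her6 and -1.20 for her9. In the edgeR quasi-likelihood test all 4 had a Benjamini-Hochberg adjusted p of at least 0.590. For lfng the side without myb rested on 9 counts in 1 of the 10 cells, a cell of DP 2 that had cdh5.

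In counts, dll4 was found in 8 of 48 cells with myb and 0 of 5 without in DP 1, and in 8 of 30 with and 2 of 5 without in DP 2. The summed level in DP 2 was 46.1 CPM with myb and 68.8 CPM without. For her6 the libraries also differed: it was found in 29 of 48 cells with myb and 0 of 5 without in DP 1, and in 22 of 30 with and 4 of 5 without in DP 2. Each library had 5 cells without myb, and neither gene was called by myb state. Of these cells, 2 in DP 2 and 0 in DP 1 had cdh5. Those 2 cells held 11 of the 13 dll4 counts and 55 of the 101 her6 counts without myb in DP 2. The part of cdh5 in these library differences was not tested.

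Ligand, receptor and target transcripts in the same cell were counted next. All 3 kinds were found together in 3 of 11 cells with cdh5 (27.3%, exact 95% interval 6.02 to 61.0%) and in 3 of 77 without (3.90%, 0.811 to 10.97%). Taken singly, dll4, a receptor and a target were found in 63.6, 63.6 and 81.8% of cells with cdh5. In cells without cdh5 these single shares were 14.3, 32.5 and 67.5%. Whether the 3 kinds met in a cell more often than their single shares give was not tested. By library, the cells with all 3 were 2 of 6 with cdh5 and 1 of 47 without in DP 1, and 1 of 5 with and 2 of 30 without in DP 2. Thinned cells gave 2 of 10 with cdh5 and 1 of 69 without, and asking for 2 or more counts gave 3 of 11 with and 1 of 77 without. The intervals overlapped, and cells are not replicates, so the shares are a description.

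**Figure D4:**
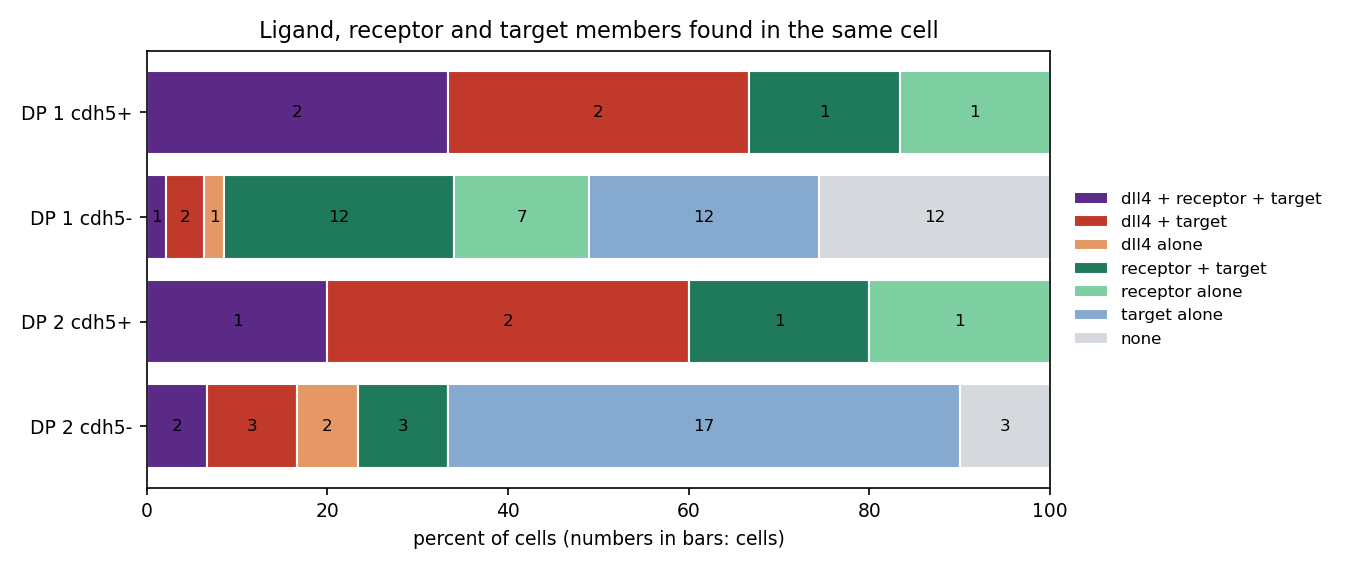
Bars show, for each library and cdh5 state, the percent of cells with each combination of dll4, any receptor and any target, with the number of cells printed in the bar. All 7 cells with both cdh5 and dll4 had a target, and cells with none of the 3 kinds numbered 0 of 11 with cdh5 and 15 of 77 without (thinned, 1 of 10 with and 26 of 69 without).

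Of the 18 cells with dll4, 15 had a target and 6 had a receptor. Of the 70 cells without dll4, 46 had a target and 26 had a receptor. The libraries went opposite ways for both kinds. In DP 1 a target was found in 7 of 8 cells with dll4 and 25 of 45 without. In DP 2 it was found in 8 of 10 with and 21 of 25 without. A receptor was found in 3 of 8 with and 21 of 45 without in DP 1. In DP 2 it was found in 3 of 10 with and 5 of 25 without. Cells with dll4 were deeper, at a median of 128684 counts against 99266 in cells without it. Among cells without cdh5 the order turned, at 47974 with dll4 and 103727 without. By library those medians were 201414 with dll4 and 123857 without in DP 1, and 47974 with and 57663 without in DP 2. The target her9 was found in 10 of 18 cells with dll4 and 16 of 70 without, in DP 1 in 3 of 8 with and 5 of 45 without, and in DP 2 in 7 of 10 with and 11 of 25 without. The receptor notch1b went the other way, with 2 of 18 cells with dll4 and 19 of 70 without, in DP 1 in 2 of 8 with and 16 of 45 without, and in DP 2 in 0 of 10 with and 3 of 25 without. Over all cells both orders were the same in each library. Among cells without cdh5 the her9 order turned in DP 1, with 0 of 4 cells with dll4 and 5 of 43 without, while DP 2 had 4 of 7 with and 11 of 23 without. For her6 there was no such common order, with 6 of 8 cells with dll4 and 23 of 45 without in DP 1, and 6 of 10 with and 20 of 25 without in DP 2. Among cells with cdh5, notch1b was in all 4 that lacked dll4 and in 2 of the 7 that had it, and her9 was in 6 of those 7 and in 0 of the 4. At 2 or more counts, notch1b was in 2 of the 4 and 2 of the 7, and her9 in 0 of the 4 and 4 of the 7. The 7 cells with dll4 also had a higher median total (181916 counts, against 67311.5 in the 4 without) and more endothelial markers (a median of 11, against 5), and kdrl was found in 6 of the 7 and 1 of the 4. The part of these gaps was not tested.

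The highest number of members in a cell was 5, reached in both libraries. The DP 1 cell with the most endothelial markers was among these. It had 15 of the 20 markers, 50 counts of dll4, 2 of notch1b, 14 of notch3, 1 of her9, 30 of her15.1 and none of her6. In DP 2 the cell without myb that had 12 endothelial markers carried all 3 receptors, with 1 count of notch1a, 1 of notch1b and 17 of notch3, as well as 9 counts of lfng and 9 of her6, but no dll4. Among cells with cdh5, a cell held a median of 3 of the 10 members, and among cells without cdh5 a median of 2.

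**Figure D5:**
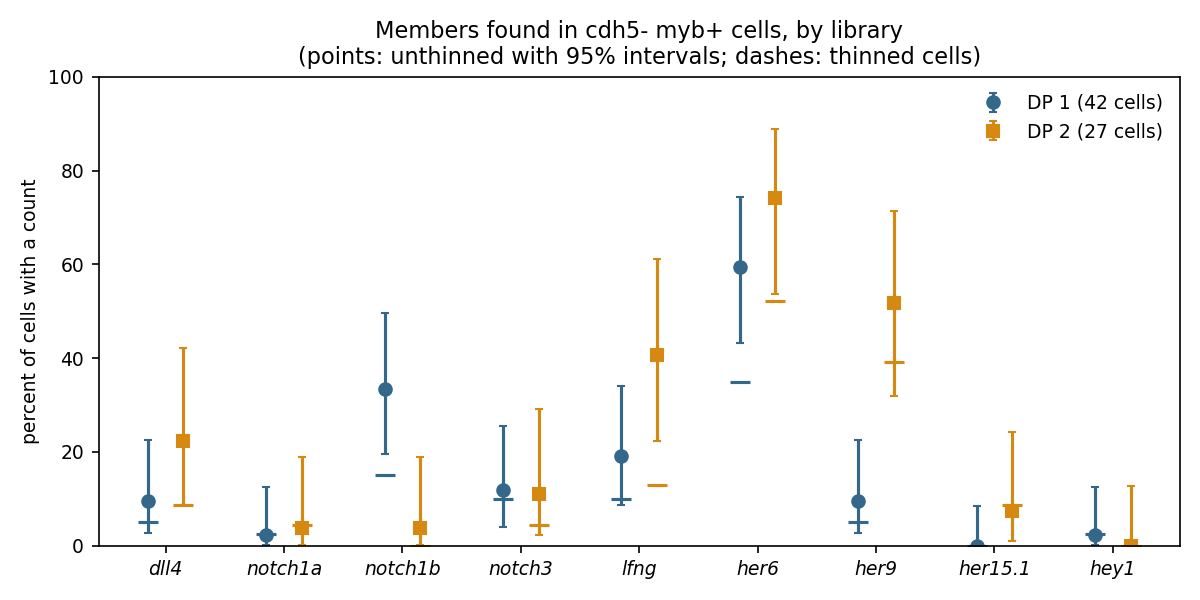
For cells with myb and without cdh5, points give the percent of cells with each member in DP 1 (42 cells) and DP 2 (27 cells) with exact 95% intervals, and dashes the percent after thinning. For her9 the percents are 9.52 in DP 1 and 51.9 in DP 2, and for notch1b 33.3 in DP 1 and 3.70 in DP 2.

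The largest group, cells with myb and without cdh5, shows how far the libraries differed within 1 state. The receptor notch1b was found in 14 of 42 such cells of DP 1 and 1 of 27 of DP 2, and thinned in 6 of 40 and 0 of 23. The target her9 ran the other way, in 4 of 42 cells of DP 1 and 14 of 27 of DP 2, and thinned in 2 of 40 and 9 of 23. The fringe gene lfng was found in 8 of 42 cells of DP 1 and 11 of 27 of DP 2, and thinned in 4 of 40 and 3 of 23. With 1 library on each side these differences have no replicate check.

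Across the 88 cells, the genes whose levels ranked most like dll4 among 7290 genes found in at least 10 cells were s1pr1, a sphingosine phosphate receptor gene (Spearman rho 0.591), efnb2a, the gene of the arterial ephrin B2 (0.560), zbtb16a (0.539), krt8 (0.535) and adgrl3.1 (0.529). The gene s1pr1 shared 9 cells with dll4. Within libraries its rho was 0.415 in DP 1, the lowest of these 5 genes there, and 0.728 in DP 2, the highest. For the other 4, rho was 0.589 to 0.633 in DP 1 and 0.430 to 0.497 in DP 2. The most alike to notch1b was CABZ01058261.1 (0.437), followed by hmgn7, chtopa, atad2 and smc1al, and the most alike to her6 was dusp1 (0.509), followed by rpl7a, rpl32, jun and rpl31. Within libraries, rho for the 5 genes beside notch1b was 0.217 to 0.411 in DP 1 and 0.338 to 0.495 in DP 2. For the 5 beside her6 it was 0.366 to 0.513 in DP 1 and 0.186 to 0.440 in DP 2. Among the other members found in at least 10 cells, her9 ranked highest beside dll4 (0.352) and notch1b lowest (-0.161). The cells share their library and differ in depth, so these values are descriptions.

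Of 56 other Notch pathway genes listed by role, 49 were in the table, 44 had a count in the kept cells and 13 passed the filter. Between cells with and without cdh5, 0 of the 13 were called by the edgeR quasi-likelihood test with Benjamini-Hochberg adjustment, 1 (efnb2a) had an unadjusted p under 0.05, and DESeq2 called 1, also efnb2a. Their median log2 fold change was 0.15, against -0.19 over all genes. The gene efnb2a was found in 2 of 6 cells with cdh5 and 3 of 47 without in DP 1, and in 5 of 5 with and 2 of 30 without in DP 2. Its summed level was 40.6 CPM with cdh5 and 2.32 CPM without in DP 1, and 73.1 CPM with cdh5 and 5.79 CPM without in DP 2. The log2 fold change was 4.44 ± 1.76 (edgeR quasi-likelihood, Benjamini-Hochberg adjusted p = 0.641; DESeq2 adjusted p = 0.0494).

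Of the machinery around the receptor, the cleavage gene adam10a was found in 39 of 88 cells, snw1, a partner of the nuclear Notch complex, in 49, and the RBPJ genes rbpja and rbpjb in 21 and 12. The inhibitor genes nrarpa and hes6 were found in 50 and 47 cells, and had negative log2 fold changes with cdh5 of -1.44 ± 1.18 and -2.58 ± 1.69, neither called by the edgeR quasi-likelihood test (adjusted p = 0.999 for each by Benjamini-Hochberg). Among the other ligand genes, jag1b was found in 13 cells and jag2b in 8. Between cells with and without myb, 0 of the 13 were called by edgeR, 1 had an unadjusted p under 0.05, and DESeq2 called 0. Levels of different genes are not compared, because the counts carry no length scale.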

How the data were processed

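The values are raw counts for each gene in each cell, taken as deposited. Among the names in the submitters' processing notes are HISAT2 2.1.0, Trimmomatic 0.36 and the build GRCz11. The sources used here do not give which of them made this table, the counting tool, the use of strand or whether molecules were collapsed. The table holds 93 cells (56 of DP 1, 37 of DP 2), and its cell list names 55 of DP 1 and 93 of DP 2. The 88 cells in which at least 500 genes were detected were kept, and 5 were removed. In all, 32 cell numbers occur in both libraries, and no pair of cells had identical counts. No doublet caller was run on singly sorted cells.

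A cell had a gene when it had 1 or more counts. Shares carry exact Clopper-Pearson 95% intervals, and summed counts exact Poisson 95% intervals, both for counting error only; floors are 3 counts. Thinning to 20217 counts kept 79 cells.

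Counts were summed per library, cdh5 state and myb state, giving 7 sums of at least 2 cells, and tested with edgeR 4.0.16 (R 4.3.3; TMM, filterByExpr, two-sided) with library as the replicate block and both states as terms (3 residual degrees of freedom). The genes cdh5 and myb were left out. An SE was taken as the size of the log2 fold change over the root of its F. In this fit the p-values of dll4, her6 and efnb2a matched a normal distribution for the log2 fold change over that SE. The spread was thus in effect drawn from all genes, and no p rests on a single gene's residual degrees of freedom. The quasi-likelihood fit is the default (legacy) form of this edgeR version. The non-legacy form, also run, calls dll4 and, of the other pathway genes tested, efnb2a. The default was kept after the results of both had been seen, because the stated design names no other form. DESeq2 1.42.0 was an alternative. The script was tested on simulated data. The members are named whatever their values; the genes most like 3 of them were the 5 of highest Spearman rho. Members, lists and rules were chosen with earlier results of these data known. SP cells were not analysed here, and no sequences are shown. The values of 1 tested pathway gene are not reported here.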

Additional observations from a re-analysis of the deposited data

How the results depend on the processing

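The 19 genes called by cdh5 state numbered 35 with DESeq2, 98 with the non-legacy quasi-likelihood, 8 with thinned counts summed, 6 with at least 3 cells per sum, 2 without the deepest cell of each sum, 89 with sums by library and cdh5 state alone, and 0 without the replicate block (237 at an unadjusted p under 0.05). The 41 called by myb state numbered 11 with DESeq2 size factors, 16 with DESeq2, 6 with the state called in thinned cells, 4 with thinned counts summed, 18 without the deepest cell of each sum, 14 without cells with mpx and npsn counts, 65 with the endothelial state from 6 or more markers, 15 with sums by library and myb state alone, and 1 without the replicate block. Without DP 1 the counts were 10 by cdh5 state and 3 by myb state; without DP 2 no residual degrees of freedom were left, and there is no test. The other alternatives run stayed within 1.5 times. No sum held a single cell, so dropping the minimum changed nothing.

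By cdh5 state, lfng turned to -0.60 with at least 3 cells per sum, -0.26 with that state alone, and leaving out a library gave -8.12 to 3.34; her6 to -0.10 with the state from 6 or more markers, -0.069 without DP 1 and -0.082 without DP 2; and her9 to -0.55 without the deepest cells, -0.066 without DP 1 and 3.55 without DP 2. By myb state, dll4 turned to -0.31 without the deepest cells and was 0.41 without DP 1 and 5.80 without DP 2 (1.22 with all cells); lfng, at 2.37, was 9.02 with at least 3 cells per sum, 2.33 without DP 1 and 8.12 without DP 2; her6 to 2.37 with the state called in thinned cells, 0.71 with thinned sums, 4.30 without the deepest cells, 1.25 with that state alone, and -1.84 without DP 1 and 11.32 without DP 2; and her9 to 0.23 with the non-legacy form, 0.48 with the state called in thinned cells and 1.92 without the deepest cells. In DP 1 the 5 cells without myb had 0 counts of dll4, lfng and her6, and the 6 cells with cdh5 had 0 counts of lfng. The sizes given without DP 2 for these genes and states are therefore not measured folds. The same holds for lfng at 9.02, because the cells with neither cdh5 nor myb had 0 counts of it in each library. Without the deepest cells, the cells without myb left in the sums held 1 count of her6 and 2 counts of dll4. Both lie below the floor of 3 counts, so her6 at 4.30 and dll4 at -0.31 are not measured folds either. The cause of the other changes was not tested. Without the cell with the most dll4, its log2 fold change by cdh5 state was 3.19 (adjusted p = 0.999, edgeR quasi-likelihood test with Benjamini-Hochberg). The shares with ligand, receptor and target together stayed within their intervals under all 6 alternatives, at 20 to 33.3% with cdh5 and 1.30 to 6.67% without. Of 120 shares of single members, 103 did so and 17 did not. The alternatives reuse the same cells or part of them, and the intervals are wide (6.02 to 61.0% for all 3 kinds with cdh5). Staying inside them is therefore a weak check. Depth and 11 cells with cdh5 limit the rest.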
